A study of Mus musculus with 96 samples.

Results

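Stem-loops that are known as microRNAs of immune cells and microglia, mir-142, mir-223, mir-146a, mir-155 and mir-150, were followed across genotypes and ages in the mouse cerebellum. They were picked by their miRBase stem-loop IDs (MI0000167, MI0000703, MI0000170, MI0000177 and MI0000172), with no measured value in the rule, and they are 5 of the 1187 IDs in the deposited tables. All 5 reached the minimum for testing, 10 counts in 8 or more libraries at each age, and so were among the 434 IDs tested. Small RNA was sequenced from C57BL/6 mice of 6 or 10 months, with 4 females and 4 males of each genotype and age, which makes 96 libraries with 5435778 to 7934044 estimated counts each. The heterozygous knock-in mice carried 1 wild type Htt allele and 1 Htt allele with human HTT exon 1 and 20 (Q20), 50 (Q50), 92 (Q92) or 140 (Q140) CAG repeats. Wild type (WT) mice were littermates from the Q20 line and from the Q50 line. Q92 and Q140 have no WT littermates among these samples, so line and genotype cannot be told apart for them. The controls of each age were the Q20 mice and all WT mice together, as in the study. At 6 months 2 libraries were left out for low connectivity with the others (Z.k of -6.68 for Q20 female replicate 2 and -6.10 for Q92 male replicate 4), which left 94. In the 2 libraries left out, the 5 stem-loops lay between 4.10 and 1065 CPM (counts scaled to a library total of 1e+06). Each was inside or just outside its own range in the kept libraries of the same genotype and age. The 6-month libraries carry the L tags 2, 3 and 4 and the 10-month libraries the L tags 1 and 8. This tag stands in the library names with no definition in the labels, and the fits within an age used it in place of a batch term.

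A microRNA is cut from a hairpin precursor and guides the silencing of messenger RNAs that pair with its seed, the bases near its 5′ end. Microglia are the resident macrophages of the brain, and blood in the vessels of a dissected tissue brings other leukocytes. mir-142 is made throughout the blood cell lineages, microglia included, and mir-223 belongs to the myeloid lineage, above all to neutrophils. mir-146a and mir-155 are induced by inflammatory signals through Toll-like receptors, where mir-146a dampens NF-kB signalling by targeting Traf6 and Irak1 and mir-155 promotes inflammatory activation. mir-150 is abundant in mature lymphocytes, where it targets Myb. In whole cerebellum, fewer cells of a type and less RNA per cell cannot be told apart. Which cells the reads of each member came from was not tested.

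The mature sequences below, from RefSeq (GRCm38.p6), are shown because the seed (bases 2 to 8, in capitals) sets which microRNAs can share targets and because near-identical sequences can share reads. The deposited tables hold 1 value per stem-loop and do not separate the arms of a hairpin.

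mmu-miR-142a-5p: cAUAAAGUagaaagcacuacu

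mmu-miR-142a-3p: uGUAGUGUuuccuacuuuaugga

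mmu-miR-223-3p: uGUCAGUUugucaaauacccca

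mmu-miR-146a-5p: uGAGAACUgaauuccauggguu

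mmu-miR-146b-5p: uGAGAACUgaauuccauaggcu

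mmu-miR-155-5p: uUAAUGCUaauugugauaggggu

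mmu-miR-150-3p: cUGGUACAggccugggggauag

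No seed was shared between the printed sequences of different members. Not every arm of each hairpin is printed. For mir-150 the RefSeq table held only the printed arm, so the seed of its other arm was not compared. Among all mature microRNAs of the RefSeq table, miR-146b-5p was the single other one with the seed of a printed member sequence, that of miR-146a-5p. The sequences of miR-146a-5p and miR-146b-5p are identical at 20 of 22 bases, and the differences are G18A and U21C, counted from the 5′ end with the miR-146a-5p base first.

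The stem-loop of mir-142 is at chr11:87756864-87756927 on the plus strand, inside an intron of the long non-coding RNA gene Mir142hg, and Mir142b is annotated on the opposite strand of the same place (chr11:87756841-87756955). mir-223 is at chrX:96242817-96242926 on the plus strand, in an exon of the non-coding gene F630028O10Rik. mir-146a (Mir146 in RefSeq) is at chr11:43374397-43374461 on the minus strand, and no other gene overlaps it in GENCODE. mir-155 is at chr16:84714140-84714204 on the plus strand, in an exon of its non-coding host gene Mir155hg. mir-150 is at chr7:45121757-45121821 on the plus strand, with no other gene over it. The files give no names, but the stem-loop lengths that relate their counts to their FPKM (64, 110, 65, 65 and 65 bases, in the order of the IDs above) equal the lengths of these 5 RefSeq genes.

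The counts of mir-146a were in part split with another stem-loop. They were further than 0.005 from a whole number in 89 of 96 libraries, and in all 89 the sum with the counts of MI0004665 was whole (within 0.01). The next best ID gave a whole sum in 6. The files do not name MI0004665. Its length from FPKM is 109 bases, as is that of Mir146b (chr19:46342762-46342870), the hairpin of the miR-146b-5p sequence above. mir-142 had such counts in 11 libraries, and all 11 became whole with MI0026028, an ID of 115 bases (the length of Mir142b) with at most 4.51 counts in a library, against at least 557 for mir-142. How many reads were shared is not known for either. Counts of mir-223, mir-155 and mir-150 were whole in every library.

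Per length, the members differed widely in level. Median FPKM over the 94 libraries was 12830 for mir-150 (9821 to 24150), 2397 for mir-142 (1485 to 3784), 1119 for mir-146a (465.7 to 2384), 98.01 for mir-155 (43.7 to 164) and 64.4 for mir-223 (30.5 to 127). In 94 of 94 libraries mir-150 was above mir-142, mir-142 above mir-146a, and mir-146a above mir-155. The level of mir-146a, and so its place under mir-142, rests on the deposited split of reads with MI0004665. The FPKM ranges of mir-155 and mir-223 overlapped, and mir-155 was the higher in 85 of 94. By CPM, which is not divided by length, their medians had the other order, 7.08 for mir-223 and 6.37 for mir-155. mir-150 took 0.0864% of all counts, mir-223 0.000708% and mir-155 0.00064%. The low members rested on few reads, with 20 to 100 counts per library for mir-223 and 17 to 70 for mir-155, against 4021 to 10285 for mir-150. Among controls at 6 months the SD was 29.3% of the mean for mir-223 and 25.3% for mir-155, and 16.7%, 12.6% and 10.2% for mir-146a, mir-142 and mir-150.

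**Figure D1:**
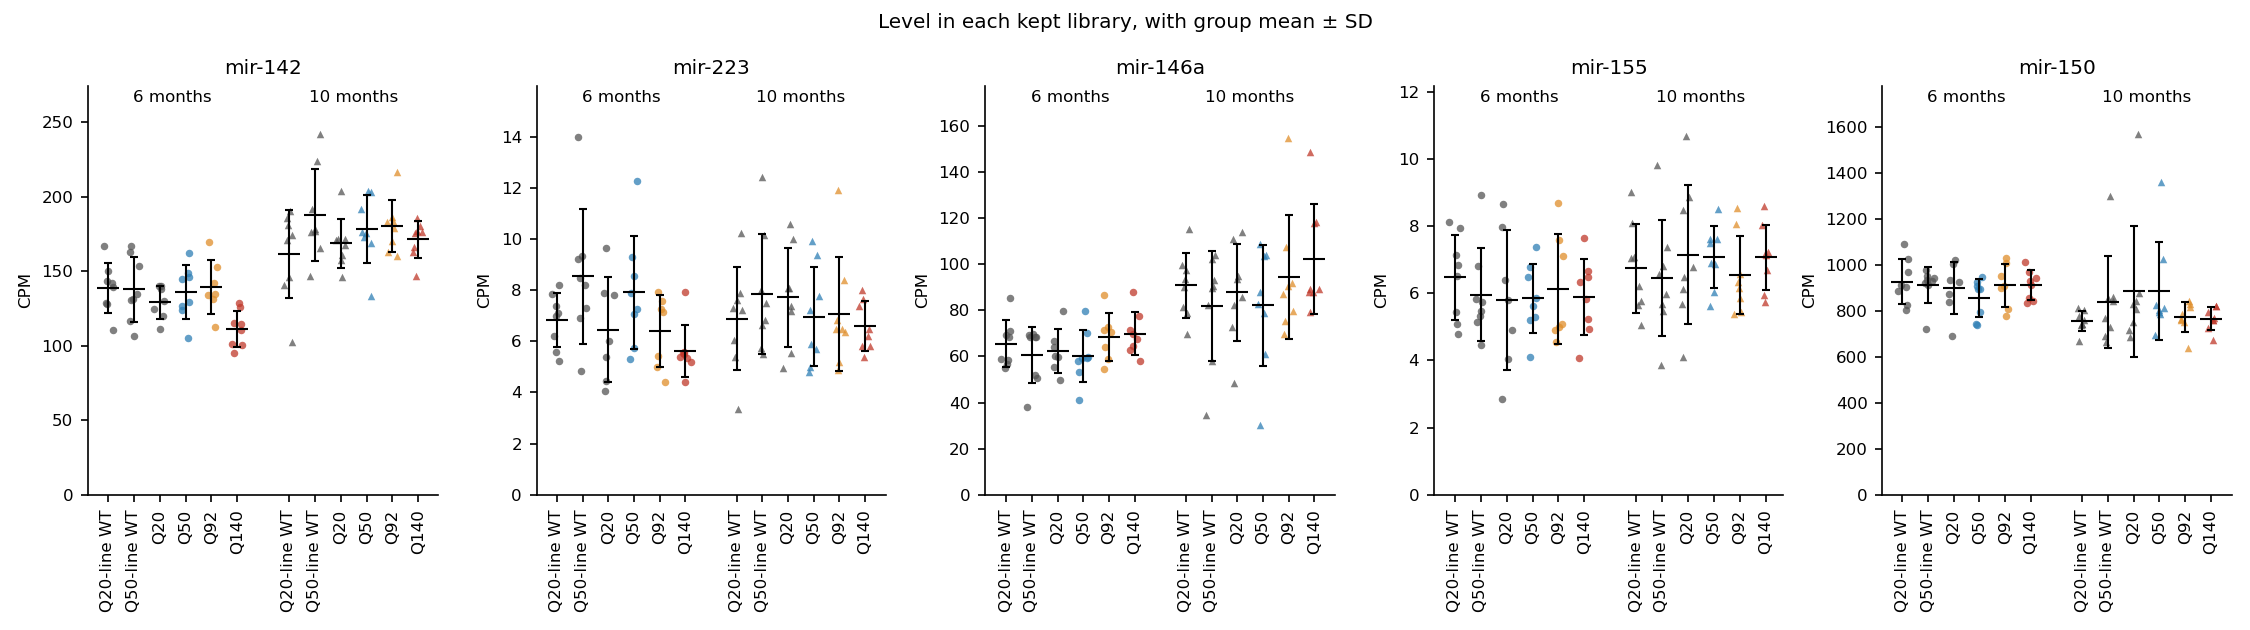
Level of each member (CPM, linear axes from 0) in each of the 94 kept libraries, by genotype, at 6 months (circles) and 10 months (triangles), with horizontal bars and whiskers for the group mean ± SD. The Q140 libraries of mir-142 sit low at 6 months, between 95.1 and 129 CPM, and 3 libraries of mir-150 stand above 1200 CPM at 10 months.

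The comparison of Q140 with controls asks whether a long CAG repeat goes with a change in these microRNAs. At 6 months mir-142 was the one member that passed the test, and it was lower in Q140. It ran from 95.1 to 129 CPM in the 8 Q140 libraries (median 113, mean 112 ± 12.1, SD) and from 106 to 167 CPM in the 23 control libraries (median 135, mean 136 ± 17.1, SD). All 8 Q140 libraries were under the control mean and 3 were under the lowest control, but the groups overlapped, since 8 of 23 controls were under the highest Q140 library. mir-142 fell by 0.27 on the log2 scale (SE 0.07, edgeR adjusted p = 0.0372 over the 434 IDs). Of all IDs tested, 2.30% were called at this age in either direction and 1.84% as lower. The call is close to the threshold. It ended with the WT libraries alone as controls, which gave a larger log2 fold change of -0.31 (adjusted p = 0.0501), with no filter on low counts (-0.27, adjusted p = 0.0656), and in 7 of the 46 fits that left out 1 library. Those were the fits without Q140 female replicate 1 (-0.29, adjusted p = 0.0830), female 2 (-0.26, 0.0936), female 4 (-0.24, 0.0940), male 1 (-0.29, 0.0675) and male 4 (-0.23, 0.0765), and without Q20 female 1 (-0.27, 0.0502) and Q20 male 4 (-0.27, 0.0507).

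At 10 months the Q140 libraries of mir-142 were inside the control range. They ran from 147 to 186 CPM (mean 171 ± 12.4, SD, n = 8), the 24 control libraries from 103 to 242 CPM (mean 173 ± 27.9, SD), and 3 of 8 were under the control mean. The log2 fold change was -0.01 (SE 0.08, 95% interval -0.17 to 0.16, edgeR adjusted p = 0.998). The Q140 change at 10 months minus that at 6 months was 0.27 on the log2 scale (SE 0.11, unadjusted p = 0.0146, edgeR adjusted p = 0.422), so a difference between the ages did not pass the test over all IDs, of which 0% passed. Over both ages the log2 fold change was -0.14 (SE 0.05, edgeR adjusted p = 0.108).

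Within L tags of 6 months the log2 fold change of mir-142 in Q140 was -0.15 (SE 0.10) in tag 2 with 3 libraries against 3, and -0.37 (SE 0.10) in tag 3 with 4 against 12. Neither tag passed alone, at edgeR adjusted p of 0.735 and 0.119. The single Q140 library of tag 4 stood at 101 CPM against a range of 106 to 154 CPM in the 8 controls of that tag, which has no replicate in Q140. At 10 months the values were -0.04 (SE 0.18) in tag 1 with 3 against 14 and 0.06 (SE 0.09) in tag 8 with 5 against 10.

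**Figure D2:**
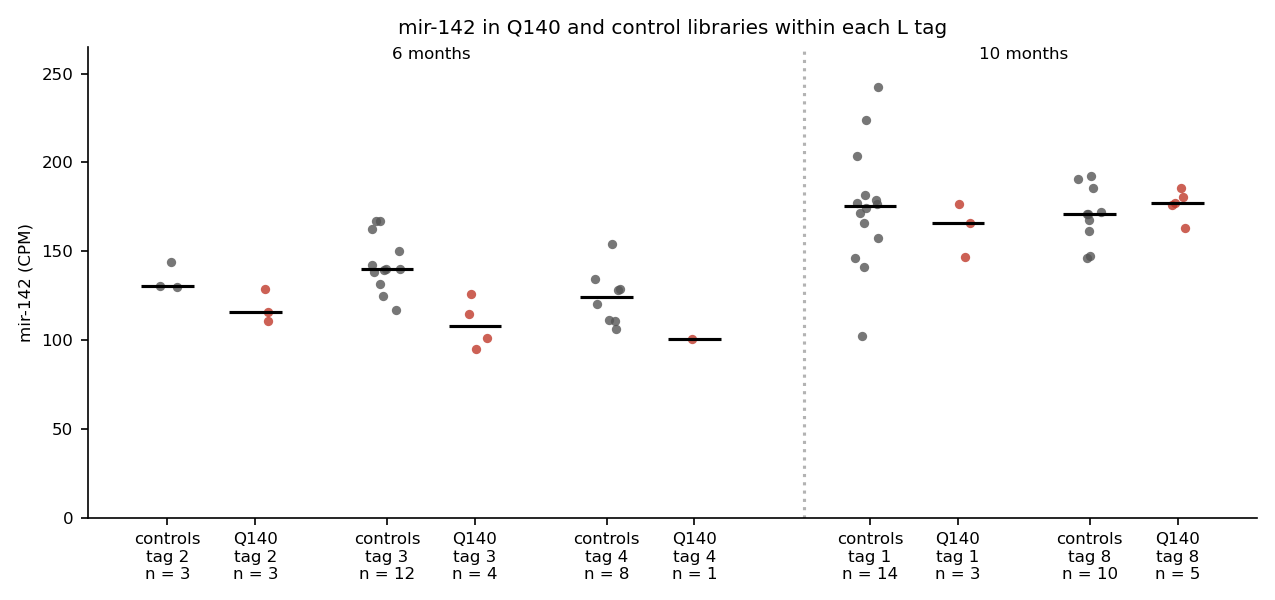
mir-142 (CPM, linear axis from 0) in each control (grey) and Q140 (red) library, split by L tag, with horizontal bars for medians and the number of libraries under each column. In tags 2, 3 and 4 of 6 months and in tag 1 of 10 months the Q140 bar is under the control bar. In tag 8 of 10 months the Q140 bar is above the control bar.

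mir-223 had the largest absolute Q140 log2 fold change of the 5 at 6 months and over both ages but did not pass. At 6 months it ran from 4.40 to 7.94 CPM in Q140 (mean 5.62 ± 1.01, SD, n = 8) and from 4.06 to 14.0 CPM in controls (mean 7.32 ± 2.14, SD, n = 23). Under the control mean lay 7 of the 8, and all 8 were inside the control range. The log2 fold change was -0.38 (SE 0.15, 95% interval -0.68 to -0.08, edgeR adjusted p = 0.144). At 10 months Q140 averaged 6.60 ± 0.973 CPM (SD, n = 8) against 7.49 ± 2.07 for controls (SD, n = 24), a log2 fold change of -0.21 (SE 0.16, edgeR adjusted p = 0.703), with 6 of 8 under the control mean. Over both ages it was -0.29 (SE 0.11, unadjusted p = 0.00852, edgeR adjusted p = 0.0955). The Q140 libraries held 31 to 56 counts of mir-223.

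Neither member of the inflammation-induced pair passed in Q140. mir-146a stood at 69.9 ± 9.34 CPM in Q140 and 62.8 ± 10.5 in controls at 6 months, and at 102 ± 23.8 and 86.8 ± 19.5 CPM at 10 months (SD, n = 8 in Q140, 23 and 24 in controls). At each age 7 of 8 Q140 libraries were above the control mean. At 10 months, however, 5 of 8 were under the control median, and the groups overlapped at both ages. The log2 fold change was 0.15 (SE 0.10) at 6 months, 0.21 (SE 0.17) at 10 months and 0.18 (SE 0.10) over both, with edgeR adjusted p of 0.423, 0.703 and 0.226. The 10-month value was 0.12 without Q140 male replicate 2 (edgeR adjusted p = 0.907). For the sum of mir-146a and MI0004665 it was 0.07 (edgeR adjusted p = 0.954), and over both ages the sum gave 0.10 (edgeR adjusted p = 0.463). Most of the sum came from MI0004665, with a mean over kept libraries of 492.5 CPM at 6 months and 541 at 10 months. The Q140 log2 fold change of MI0004665 alone was 0.05 at 10 months and 0.10 over both ages. The sum therefore cannot show a change in mir-146a alone. mir-155 stood at 5.90 ± 1.13 CPM in Q140 and 6.10 ± 1.54 in controls at 6 months, and at 7.07 ± 0.967 and 6.78 ± 1.69 CPM at 10 months. Its log2 fold change was -0.08 at 6 months (95% interval -0.35 to 0.19) and 0.07 at 10 months (-0.16 to 0.30), neither of which passed (edgeR adjusted p of 0.817 and 0.916).

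mir-150 gave the narrowest interval at 6 months. It stood at 913 ± 64.5 CPM in Q140 (835 to 1014) and 914 ± 92.9 in controls (692 to 1090), a log2 fold change of 0.02 with a 95% interval of -0.08 to 0.12 (edgeR adjusted p = 0.884). At 10 months it stood at 766 ± 49.8 CPM in Q140 (673 to 822) and 828 ± 201 in controls (664 to 1570), a log2 fold change of -0.07 with an interval of -0.24 to 0.10 (edgeR adjusted p = 0.848). At 10 months all 8 Q140 libraries were under the control mean, while 5 of 8 were under the control median.

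At 10 months and over both ages, 0 of the 5 members were called by edgeR in Q140, beside 2.30% and 5.07% of all IDs. At an unadjusted p under 0.05 there were 0 and 2 members (mir-142 and mir-223 over both ages), beside 47 and 94 of the 434 IDs. DESeq2 called 0 and 0, and DESeq2 after replacement of single outlying counts called 0 and 1 (mir-142 over both ages, -0.16, adjusted p = 0.0293).

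The shorter repeats gave no call among the members. With Q92 and Q50, edgeR called 0 of 5 at each age and in both ages together, 0 of 5 had an unadjusted p under 0.05 in any of these comparisons, and DESeq2 and limma on log2(FPKM + 1) called 0. Of all IDs, 0% were called for Q92 in each and for Q50 at 6 months and over both ages, and 3.69% for Q50 at 10 months. Of the 434 IDs, 22, 47 and 25 for Q92 had an unadjusted p under 0.05 (6 months, 10 months, both). For Q50 there were 13, 71 and 29. For Q92 the log2 fold changes of the members ran from -0.14 (mir-223) to 0.13 (mir-146a) at 6 months and from -0.09 (mir-223) to 0.12 (mir-146a) at 10 months. For Q50 they ran from -0.03 (mir-150) to 0.17 (mir-223) and from -0.20 (mir-223) to 0.04 (mir-150). For mir-142 at 6 months, where Q140 was lower, the log2 fold change was 0.04 in Q92 (95% interval -0.10 to 0.18) and 0.08 in Q50 (-0.06 to 0.22). All these comparisons share their controls with that of Q140.

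CAG length was also taken as a number, with 7 for WT. Here 0 of 5 members passed at 6 months, at 10 months or in both combined, beside 2.76%, 0.461% and 3% of all IDs. By unadjusted p under 0.05 there were 2, 0 and 2 members, beside 74, 44 and 78 of the 434 IDs. DESeq2 called 0 members in each. Per 100 CAG, the log2 change over both ages was -0.21 for mir-223 (SE 0.08, unadjusted p = 0.0101, edgeR adjusted p = 0.118) and 0.14 for mir-146a (SE 0.07, unadjusted p = 0.0266, edgeR adjusted p = 0.202). At 6 months it was -0.15 for mir-142 (SE 0.05, edgeR adjusted p = 0.159) and -0.27 for mir-223 (SE 0.11, edgeR adjusted p = 0.218). The order of mir-142 means at 6 months did not follow the repeat length, with 136 ± 17.1 CPM in controls, 136 ± 17.95 in Q50, 140 ± 17.96 in Q92 and 112 ± 12.1 in Q140 (SD). For mir-223 they were 7.32 ± 2.14, 7.92 ± 2.21, 6.39 ± 1.41 and 5.62 ± 1.01 CPM.

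The contrasts within lines ask whether Q20, which is counted as a control, and Q50 differ from their own WT littermates. Over both ages 0 of 5 members were called in either (0 by unadjusted p under 0.05 and 0 by DESeq2), beside 1.15% of all IDs for Q20 and 0% for Q50. Of the 434 IDs, 39 for Q20 and 25 for Q50 had an unadjusted p under 0.05. The log2 fold changes ran from -0.06 (mir-155) to 0.08 (mir-150) in Q20 and from -0.18 (mir-223) to 0.08 (mir-155) in Q50.

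Between the sexes 0 of 5 members were called over both ages, beside 8.06% of all IDs. At an unadjusted p under 0.05 there was 1 member, beside 98 of the 434 IDs, and DESeq2 called 0 members. The member was mir-150, at 872 ± 82.5 CPM in males and 935 ± 81.5 in females at 6 months (SD, n = 23 each). At 10 months it stood at 792 ± 120 and 845 ± 209 (SD, n = 24 each). The log2 difference over both ages was -0.08 (SE 0.04, edgeR adjusted p = 0.118). Without the L tag in the fit mir-150 passed, at -0.10 (adjusted p = 0.0430). No member passed the test of the Q140 change between the sexes (0 of 5 by edgeR and 0 by DESeq2, beside 0% of all IDs by edgeR). By unadjusted p under 0.05 there were 0 members, beside 29 of the 434 IDs. The differences between the sexes ran from -0.01 (mir-142) to 0.27 (mir-155, 95% interval -0.09 to 0.63).

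**Figure D3:**
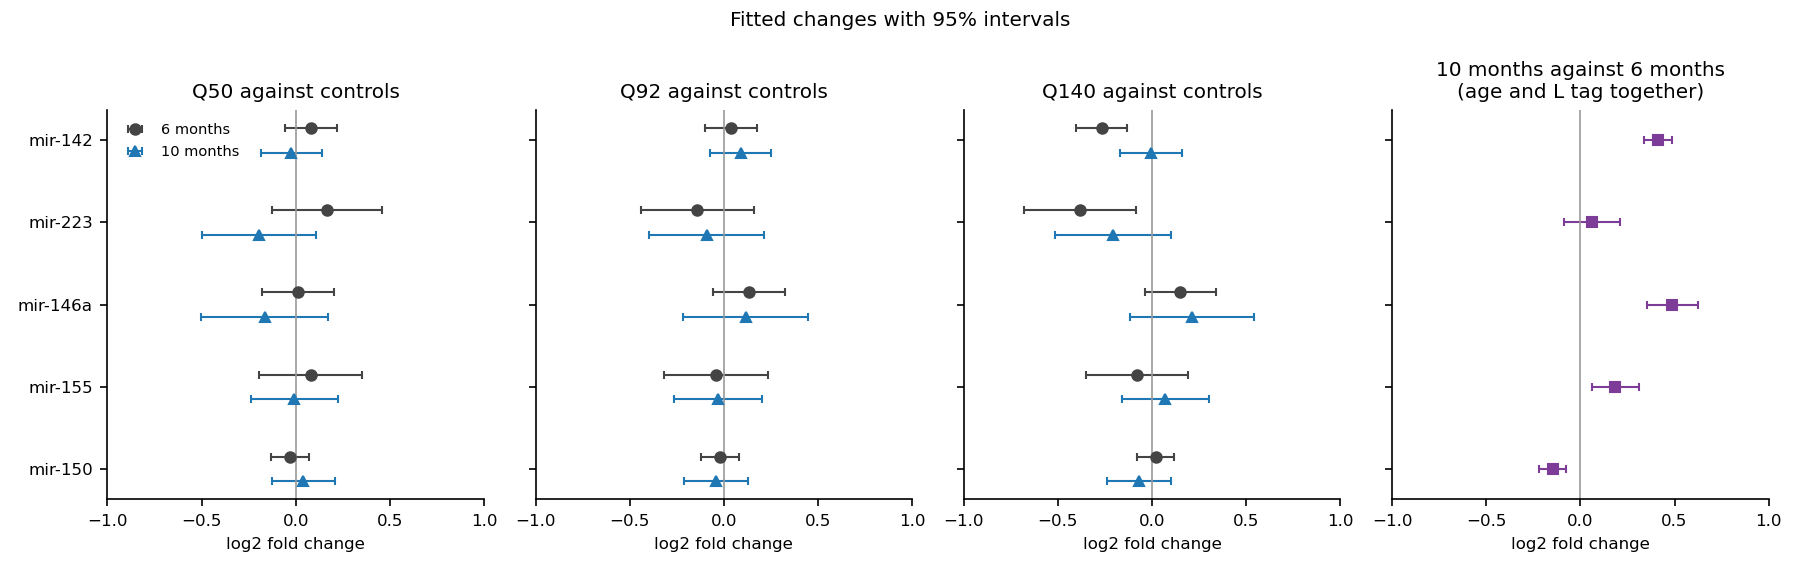
Log2 fold changes from edgeR (points) with 95% intervals (whiskers) for each member in Q50, Q92 and Q140 against controls at 6 months (circles) and 10 months (triangles), and for 10 months against 6 months (squares). In Q140 at 6 months the intervals of mir-142 (-0.40 to -0.13) and mir-223 (-0.68 to -0.08) lie under 0, and in the last panel the intervals of mir-142, mir-146a and mir-155 lie above 0 and that of mir-150 under 0.

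The lowest p-values were those of the comparison between the 10-month and the 6-month libraries, where the effect of age cannot be told apart from that of the L tag. Of the 5 members 3 were higher at 10 months, 1 was lower and 1 did not pass, beside 34.6% of all IDs called, 15.9% as higher and 18.7% as lower. The median log2 fold change over all IDs was 0.00, and the median of its absolute size was 0.08. mir-142 was 132 ± 18.7 CPM at 6 months (95.1 to 169, n = 46) and 175 ± 23.2 at 10 months (103 to 242, n = 48). It rose by 0.41 on the log2 scale (SE 0.04, edgeR adjusted p = 1.26e-15), and 32 of 48 libraries at 10 months were above the highest of 6 months. mir-146a was 64.4 ± 10.7 and 89.9 ± 23.0 CPM, and it rose by 0.49 (SE 0.07, edgeR adjusted p = 1.41e-08), with 29 of 48 above the highest of 6 months. mir-155 was 6.03 ± 1.38 and 6.84 ± 1.38 CPM and rose by 0.19 (SE 0.06, edgeR adjusted p = 0.0170), with 3 of 48 above. mir-223 was 6.98 ± 2.01 and 7.18 ± 1.91 CPM, a log2 fold change of 0.06 with a 95% interval of -0.09 to 0.21 (edgeR adjusted p = 0.561).

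mir-150 went the other way. It was 904 ± 87.1 CPM at 6 months (692 to 1090) and 819 ± 171 at 10 months (638 to 1570), and it fell by 0.15 (SE 0.04, edgeR adjusted p = 0.000931). The medians were 914 and 786 CPM, and 3 of 48 libraries at 10 months were above the highest of 6 months. Those were Q20 female replicate 4 (1570 CPM), Q50 female replicate 4 (1363 CPM) and Q50-line WT male replicate 1 (1300 CPM), all of tag 1. Their library names end in LB3, LB2 and LB1, and those of the other tag 1 libraries in LB16 to LB36. The labels do not define this part of the name, and no fit used it. Without the 3 libraries of highest mir-150, chosen after their values were seen, the log2 fold change was -0.20 (edgeR adjusted p = 1.77e-10).

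mir-142, mir-146a and mir-155 each had a higher mean at 10 months in 6 of 6 genotype groups, none of which was tested on its own. The ratio of means ran from 1.16 (Q20-line WT) to 1.54 (Q140) for mir-142 and from 1.35 (Q50-line WT) to 1.46 (Q140) for mir-146a. For mir-155 it ran from 1.04 (Q20-line WT, 6.48 ± 1.27 and 6.74 ± 1.33 CPM, within the SD) to 1.23 (Q20). mir-150 was lower in 5 of 6, and mir-223 was higher in 4 of 6. The medians of the tags were compared too. For mir-142 they ran from 129 to 139 CPM over the 3 tags of 6 months and were 176 CPM in both tags of 10 months, and for mir-146a they ran from 58.0 to 68.9 CPM and from 89.2 to 90.1 CPM. For mir-155 they ran from 5.25 to 6.42 CPM and from 6.64 to 6.82 CPM, so the tags of 6 months differed among themselves by more than the nearest tags of the 2 ages. For mir-223 they ran from 5.97 to 7.35 CPM and from 6.57 to 7.38 CPM. MI0004665, which shares reads with mir-146a, was 492.5 ± 81.4 CPM at 6 months and 541 ± 139 at 10 months and did not pass (0.15, SE 0.07, edgeR adjusted p = 0.115). The sum of mir-146a and MI0004665, which does not depend on how their reads were split, was higher at 10 months by 0.19 on the log2 scale (edgeR adjusted p = 0.0291). Most of this sum is MI0004665, so it cannot show the change of mir-146a alone.

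To see whether the members varied together from mouse to mouse, log2(CPM + 0.5) was compared across the 94 libraries after the means of genotype, sex and L tag within age had been removed. All members come from the same libraries and share their totals. mir-142 and mir-223 varied together, with r = 0.40 and rho = 0.37 (permutation p = 4e-05 and 0.00031, adjusted over the 10 pairs 0.0002 and 0.00273). The r was 0.46 without the 2 libraries farthest from the median of mir-142 and positive in 5 of 5 tags, from 0.12 (tag 2, n = 6) to 0.61 (tag 3, n = 24). mir-146a and mir-155 had r = 0.29 and rho = 0.35 (permutation p = 0.00547 and 0.0007, adjusted 0.0182 and 0.00273), r = 0.26 without the 2 farthest libraries, and a positive r in 5 of 5 tags, from 0.12 to 0.46. mir-142 and mir-146a had r = 0.28 and rho = 0.26 (permutation p = 0.00821 and 0.0119, adjusted 0.0205 and 0.0298), r = 0.32 without the 2 farthest, and a positive r in 4 of 5 tags, tag 2 with 6 libraries being the exception (-0.52). Among all other tested IDs, 95% had a rho under 0.354 with mir-142, 0.285 with mir-223, 0.267 with mir-146a and 0.311 with mir-155. The rho of mir-142 with mir-146a was under the limits of both, and that of mir-142 with mir-223 was just above the limit of mir-142.

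mir-146a and mir-150 had r = -0.55 and rho = -0.34 over the 94 libraries. The adjusted permutation p was 0.0001 for r, from the smallest p the permutations can give, and 0.00273 for rho. The r was -0.37 without the 2 libraries farthest from the median of mir-146a. It was negative in 5 of 5 tags, at -0.83 in tag 1 (n = 24), which holds the 3 libraries named above, -0.49 in tag 4 (n = 16), -0.40 in tag 2 (n = 6), -0.06 in tag 3 (n = 24) and -0.05 in tag 8 (n = 24). Those 3 libraries stood apart from the others. They are also the LB1 to LB3 libraries of tag 1, so mouse and set of libraries cannot be told apart for them. They were the highest of all in mir-150 and among the low ones in mir-146a, at 48.5, 30.3 and 34.7 CPM in the order given. In the other 91 libraries, a choice made after the values were seen, r was -0.15 and rho -0.18 (adjusted permutation p = 0.336 for r), so the pooled value rests on them in large part. The other 6 pairs did not pass in the 94 libraries, with r from -0.08 (mir-142 with mir-150) to 0.21 (mir-223 with mir-146a, adjusted permutation p = 0.0820). Without the 3 libraries mir-223 with mir-146a passed as well (r = 0.27, adjusted permutation p = 0.0275). All pairs with mir-146a rest on the deposited split of its reads with MI0004665, and their sum was not correlated with the other members.

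**Figure D4:**
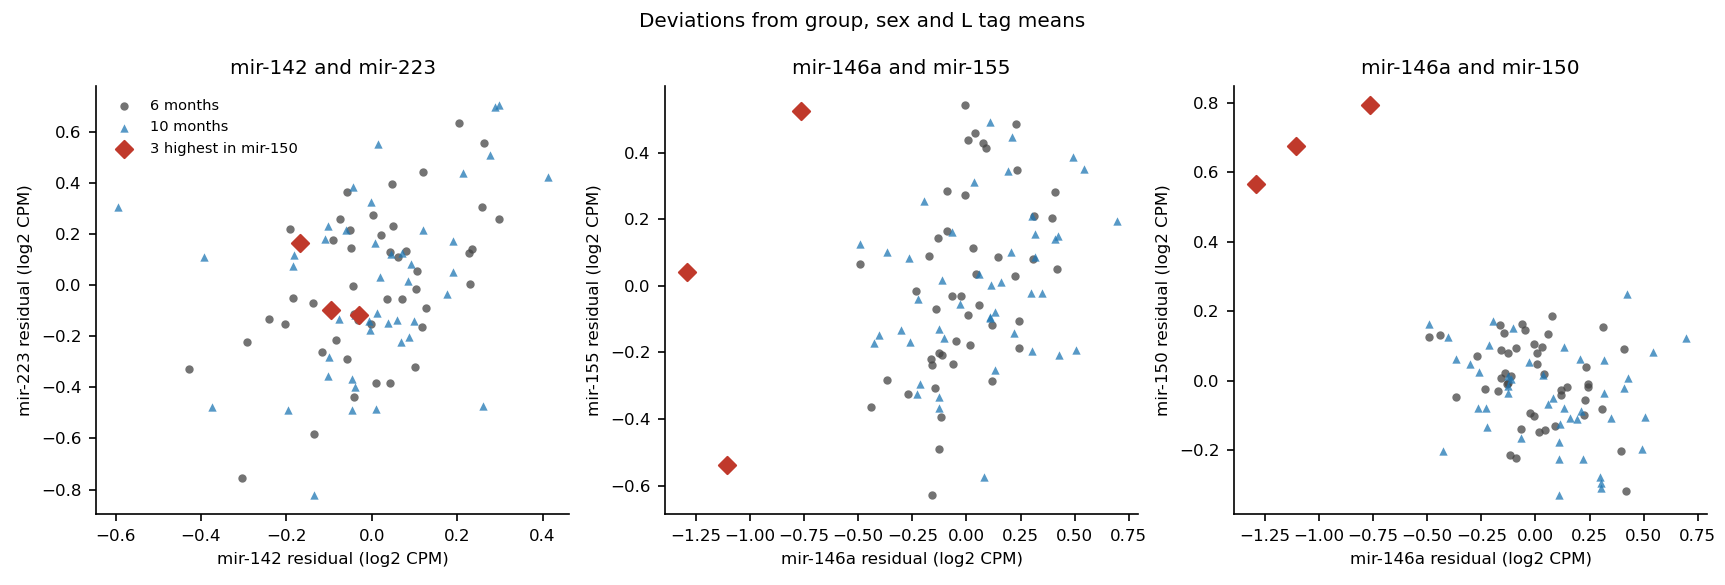
Deviations of 3 pairs of members in the 94 libraries (log2 CPM after removal of genotype, sex and L tag means within age, on both axes), at 6 months (circles) and 10 months (triangles), with the 3 libraries of highest mir-150 as diamonds. The clouds of mir-142 with mir-223 (r = 0.40) and mir-146a with mir-155 (r = 0.29) slope upward, and in the last panel the 3 diamonds lie apart from the other 91 libraries.

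The IDs most like each member on the same scale were found among the 434 tested, and the files do not name them. For mir-142 they were MI0000153, MI0000578 and MI0000142 (rho of 0.63, 0.60 and 0.57, where 95% of all IDs were under 0.35), for mir-223 MI0000246, MI0000550 and MI0000257 (0.52, 0.49 and 0.47), and for mir-155 MI0000247, MI0000404 and MI0000403 (0.51, 0.45 and 0.44). For mir-146a MI0004665 came first (0.81), which shares its reads, followed by MI0000233 (0.67) and MI0001146 (0.61). For mir-150 they were MI0000171, MI0000164 and MI0003534 (0.70, 0.69 and 0.60, where 95% of all IDs were under 0.42). No member was among the 3 most like another member.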

How the data were processed

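Small RNA libraries of mouse cerebellum were grouped by the labels. Reads were aligned to mm10 with STAR and counted with HTSeq, per the study's methods, and the submitters' processing notes list CASAVA 1.8.2. The authors deposited unnormalized estimated counts and FPKM per miRBase stem-loop, and some counts are fractional. The study's methods do not describe how reads were split between stem-loops. All columns belonged to a labelled sample. CPM used the library total. Reads carried no molecular identifiers.

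Counts were rounded and tested with edgeR 4.0.16 (quasi-likelihood, TMM) in R 4.3.3, each age on its own with sex and L tag as terms, with Benjamini-Hochberg adjustment over the 434 IDs and a threshold of 0.05. Ages were combined by signed z. The Q140 difference between the sexes was fitted within each age and combined in the same way. Age and the Q140 difference between the ages were fitted over all libraries. Correlation p-values came from 100000 two-sided permutations. Scripts were tested on simulated data. Alternatives used DESeq2 1.42.0, limma 3.58.1 on log2(FPKM + 1) and log2(FPKM + 0.1), and other filters, libraries and terms. No 2 libraries agreed within sampling noise (the closest pair had a chi-square of 17.3 per degree of freedom).

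The 5 members are always named, and other IDs only as the 3 with the highest rho to a member or as sharing its reads. Members, lists and tests were chosen with earlier results of these data known. Lists of other immune, blood, vessel, glial, neuronal and choroid plexus microRNAs, written by name, were not analysed here, because no table used here pairs IDs with names, and tissue markers were therefore not checked.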

Additional observations from a re-analysis of the deposited data

Results flagged for a closer look

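Within each genotype and age, the highest and the lowest library of every member were set against the others by Dixon's test at its 95% level. Of 60 groups, 8 held a library that stood apart, where chance gives about 1 in 20, or 3.

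For mir-142 these were Q20 10-month male replicate 4 at 204 CPM (nearest other 172) and Q92 10-month female replicate 3 at 217 CPM (nearest 187). The latter also stood apart in mir-146a, at 155 CPM (nearest 107). For mir-223 it was Q140 6-month male replicate 2 at 7.94 CPM, where the other 7 averaged 5.28 CPM. For mir-150 there were 4, namely Q50-line WT 6-month male replicate 4 at 722.5 CPM (nearest 914), Q50-line WT 10-month male replicate 1 at 1300 CPM (nearest 862), Q20 10-month female replicate 4 at 1570 CPM (nearest 880) and Q92 10-month male replicate 4 at 638 CPM (nearest 750.3).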

How the results depend on the processing

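Except where named here, the number of members called was the same in every comparison under each alternative run. At 6 months the 1 member called in Q140, mir-142, became 0 under the replicate block, without a low count filter and with only WT as controls (log2 fold changes of -0.27, -0.27 and -0.31, adjusted p = 0.0519, 0.0656 and 0.0501). The replicate numbers were not taken to pair libraries, since 19 of 47 same-numbered pairs of Q140 and control libraries correlated above 0.1 (median 0.02, with 16 of 47 best with their own number), as did 4 of 15 pairs of Q20 with WT of its line and 5 of 16 of Q50 with WT of its line. The block changed no other count of calls. Over both ages the count in Q140 went from 0 to 1 under DESeq2 with outlying values replaced, and between the sexes from 0 to 1 with no L tag. Leaving out 1 library gave 0 to 1 in Q140 at 6 months (mir-142 from -0.30 to -0.23) and 4 to 4 for 10 against 6 months.

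Values near 0 turned their sign. For mir-142 in Q140 at 10 months they were 0.0041 in both limma fits, 0.0334 after the libraries with Z.k under -3 were left out, and -0.0277 to 0.0261 with 1 library left out, and for its CAG change at 10 months -0.0199 under DESeq2 with outlying values replaced and -0.0036 to 0.039 with 1 left out. For mir-150 in Q140 at 6 months they were -0.0017 with only the groups compared, -0.0217 in both limma fits and -0.0115 to 0.0312 with 1 left out, and over both ages 0.0002 under DESeq2 with outlying values replaced. Its CAG change at 6 months was -0.0054 with a mean count of at least 50, -0.005 in all 96 libraries, -0.0049 with the replicate block, -0.0273 in both limma fits, -0.0057 after those of Z.k under -3 were left out, and -0.0193 to 0.0112 with 1 left out. With no L tag mir-155 over both ages was 0.041 in Q140 and 0.0236 per 100 CAG, against -0.0417 to 0.0295 and -0.0278 to 0.014 with 1 left out. The Q140 difference between ages of mir-146a was -0.0672 for its sum with MI0004665 and -0.0206 to 0.1198 with 1 left out. The pair of mir-146a and mir-150 lost its call without the 3 libraries of highest mir-150 (r = -0.15). The alternatives on libraries of Z.k under -3, the 3 libraries and the sum were chosen after seeing the data. The cause was not tested. The fewest reads lay behind mir-223 and mir-155, with at most 100 and 70 counts in a library.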
